A study of Mus musculus with 4 samples.

Results

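Solute carriers of sugar, lactate and amino acids were followed in CD11b+ myeloid cells of mouse liver from 2 genotypes. The 103 genes are the protein-coding rows of the count table whose GENCODE M21 symbol starts with Slc1a, Slc2a, Slc3a, Slc5a, Slc6a, Slc7a, Slc16a, Slc36a, Slc38a or Slc43a, out of 55487 rows in all. Some carry other substrates, and Slc7a6os, which meets the rule by its name, does not encode a transporter. LysM-Cre IL10R wt/wt (2 libraries) carries the Cre recombinase at the lysozyme 2 locus and an unmodified interleukin-10 receptor gene, and LysM-Cre IL10R fl/fl (2 libraries) carries the same Cre with the receptor gene flanked by loxP sites. Cre is thus present in both groups, and it is active in macrophages, monocytes and granulocytes, so that the deletion is not limited to one of these cell types. The sort kept CD45+ CD3- CD11c- CD11b+ cells. The labels do not give the age or sex of the mice, nor say if 2 libraries of 1 genotype are from different animals or if the livers held metastases, which the series title concerns. P-values therefore measure the spread between these libraries.

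Glucose enters leukocytes down its gradient through the GLUT proteins of the Slc2a family, and the lactate that glycolysis yields leaves with a proton through monocarboxylate transporters of the Slc16a family. Amino acids enter by sodium-coupled carriers (Slc1a, Slc6a, Slc38a) or are exchanged one for another by Slc7a light chains, several of which reach the cell surface only when bound to the heavy chain encoded by Slc3a2 (CD98). Carriers of the Slc36a family and some of Slc38a sit in the lysosome membrane, where amino acids released by protein breakdown are sensed by the mTORC1 kinase. In activated macrophages the glucose carrier Slc2a1 is known as a target of the hypoxia-inducible factor HIF-1.

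The libraries wt/wt 1 and wt/wt 2 had 22694136 and 26441014 counts in total, fl/fl 1 had 17750343 and fl/fl 2 had 17154042. Il10ra, the ligand-binding chain of the receptor, held 1111 and 993 CPM (counts scaled to the library size with TMM factors) for wt/wt, against 69.3 and 14.8 CPM for fl/fl. The X-inactivation RNA Xist was seen in fl/fl 2 alone, with 4298 counts and 0 elsewhere, so the fl/fl pair mixed the sexes. Markers of neighbouring cell types differed between the groups: the summed level of 14 mature neutrophil genes was 3322 and 4151 CPM in the wt/wt pair and 40650 and 18120 CPM in the fl/fl pair, that of 10 granulocyte precursor genes 287 and 245 against 1988 and 860 CPM, and that of 12 Kupffer cell genes 922 and 937 against 371 and 267 CPM. Of the neutrophil and precursor genes, 12 of 14 and 8 of 10 rose at an adjusted p under 0.05 (edgeR). The background was 2.69% of all tested genes higher and 3.16% lower. Of 7 tested Kupffer cell genes, 3 fell and 0 rose. Of 10 classical monocyte genes 3 rose and 1 fell, and of 9 tested dendritic cell genes 1 fell and 0 rose. Most of the Kupffer cell sum came from C1qa, C1qb, C1qc and Adgre1 in the wt/wt pair. Of the 7 tested genes of this list, 4 had a negative and 3 a positive log2 fold change. Slc40a1 went the other way from the sum, at 8.27 and 34.1 CPM against 72.3 and 54.9 CPM (log2 fold change 1.58, adjusted p = 0.164, edgeR). The sum without it was 914 and 903 against 299 and 212 CPM. Cd5l was at 1.00 and Cd163 at 0.15, with overlapping libraries. The defining markers Clec4f, Vsig4 and Timd4 had at most 15 counts in any library. Vsig4 held 0 and 0 counts in wt/wt against 12 and 5 in fl/fl, and Marco held 5 and 1 against 8 and 21. In bulk RNA, fewer cells of a type and less RNA per cell cannot be told apart, and the part of cell composition in the differences below was not tested.

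For 2 of the 3 genes that passed the test described below, Slc2a1 and Slc7a8, and for the neighbouring family member Slc2a6, the RefSeq table (GRCm38.p6) holds promoter sequence. The third is Slc6a8. The 250 bases before each RefSeq start are shown because Slc2a1 and Slc7a8 fell while Slc2a6 was higher in fl/fl without passing; capitals mark the core letters of the HIF binding motif, ACGTG or GCGTG on either strand.

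Slc2a1 (chr4:119108495-119108744, plus strand): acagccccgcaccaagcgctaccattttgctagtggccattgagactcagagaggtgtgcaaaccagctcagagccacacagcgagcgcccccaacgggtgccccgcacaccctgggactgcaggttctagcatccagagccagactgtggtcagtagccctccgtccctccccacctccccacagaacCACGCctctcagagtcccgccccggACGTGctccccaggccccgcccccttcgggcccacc
Slc2a6 (chr2:27027999-27028248, minus strand): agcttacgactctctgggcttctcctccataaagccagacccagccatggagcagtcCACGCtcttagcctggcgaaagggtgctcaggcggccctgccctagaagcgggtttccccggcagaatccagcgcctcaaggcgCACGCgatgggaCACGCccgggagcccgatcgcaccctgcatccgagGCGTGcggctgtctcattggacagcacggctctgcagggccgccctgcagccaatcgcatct
Slc7a8 (chr14:54781887-54782136, minus strand): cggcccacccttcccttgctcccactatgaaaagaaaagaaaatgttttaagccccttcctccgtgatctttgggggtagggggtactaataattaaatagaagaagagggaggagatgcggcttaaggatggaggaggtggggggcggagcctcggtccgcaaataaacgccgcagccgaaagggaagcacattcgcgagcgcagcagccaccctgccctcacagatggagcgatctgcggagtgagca

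The Slc2a1 window held 2 such matches, beginning 61 and 36 bases before the start, and the Slc2a6 window held 4. The Slc7a8 window held 0. The motif was present in 38.6% of all 32851 RefSeq promoter windows of this length, counting a window with any match, and in 46 of 98 windows of the transporter genes. The Slc2a1 and Slc2a6 windows were 66.4% and 65.2% G and C, and the Slc7a8 window 55.6%, against a median of 52.4% over all promoters. A STAT-type palindrome, TTCNNNGAA, which reads the same on both strands, was in 7.02% of all windows and in none of these 3. A match describes letters only; no binding was measured here.

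Of the 103 genes, 37 had 0 counts in every library, which allows up to 3 counts or 0.111 to 0.175 CPM in a library; this covers counting error only. Another 25 had between 1 and 35 counts over the 4 libraries and were not tested. The remaining 41 passed the filter on low counts, 35 of them in both libraries of both genotypes. Slc6a8 and Slc5a3 reached the filter's level in both libraries of wt/wt only, and Slc5a11 and Slc36a3 in both libraries of fl/fl only. Slc16a4 and Slc16a11 reached it in 1 library of each genotype. Families differed in how many members were tested: 8 of 14 Slc16a genes, 8 of 16 Slc7a genes, 6 of 11 Slc38a genes and 5 of 12 Slc2a genes, but 4 of 21 Slc6a genes, 3 of 13 Slc5a genes and 1 of 7 Slc1a genes.

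Per kilobase of exon, the most abundant genes stood in a different order by their means in each genotype. In wt/wt the highest means were those of Slc2a1 (97.9 CPM per kb) and Slc3a2 (95.9), whose libraries overlapped, then the lactate exporter Slc16a3 (67.2) and the lysosomal hexose carrier Slc2a6 (34.8). In fl/fl they were those of Slc3a2 (60.5), Slc16a3 (54.9) and Slc2a6 (53.3), each overlapping the next, and Slc2a1 was the fourth, at 33.7 CPM per kb. Over all 4 libraries, the means of the taurine carrier Slc6a6 (26.8), the glutamine and alanine carriers Slc38a2 (25.0) and Slc1a5 (22.2), and Slc2a3 (19.4) came next. At the low end stood the arginine carrier Slc7a2 (0.386 CPM per kb) and the inositol carriers Slc5a11 (0.283) and Slc5a3 (0.117).

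**Figure D1:**
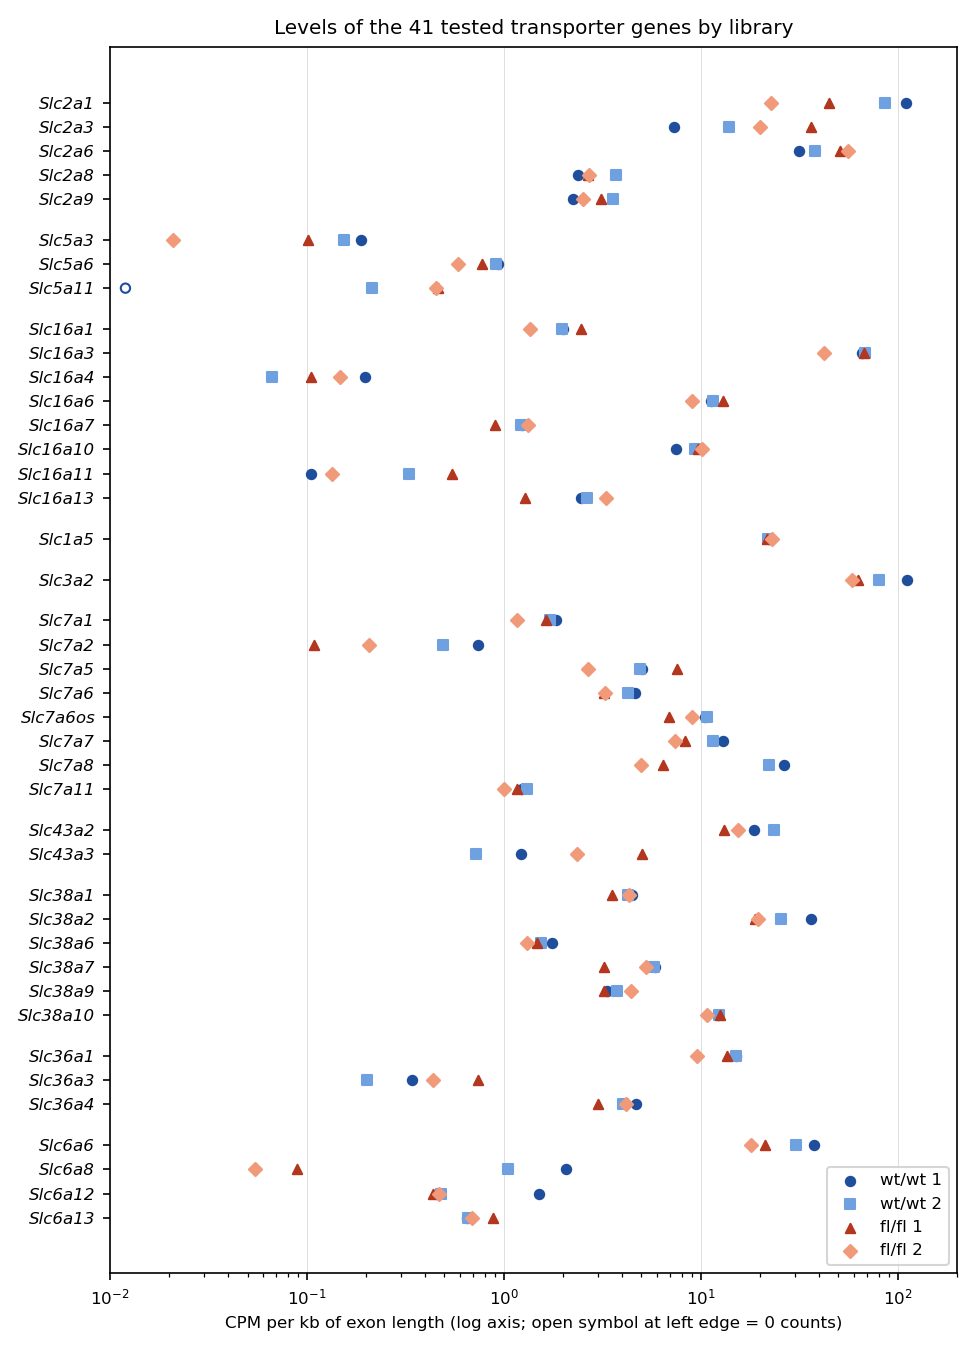
Level of each of the 41 tested genes, in CPM per kb of exon length on a log axis, one symbol per library, grouped by family. The red fl/fl symbols lie left of the blue wt/wt symbols for Slc2a1, Slc7a8 and Slc6a8 and right of them for Slc2a3, Slc2a6 and Slc43a3, and all 4 symbols nearly coincide for Slc1a5.

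Between genotypes, 3 of the 41 tested genes fell in fl/fl (7.32%; background 3.16% of 13496 tested genes lower) and 0 rose (background 2.69% higher), by the edgeR quasi-likelihood test at an adjusted p under 0.05. The 3 are Slc2a1, Slc7a8 and Slc6a8. Slc6a8 was admitted to the test by its wt/wt counts alone. Among the 35 transporters that reached the count minimum in both genotypes, 2 fell (5.71%; background 3.35% of 11663 such genes) and 0 rose (background 2.83%). At an unadjusted p under 0.05, 9 of the 41 were lower and 3 higher, which is 22.0% and 7.32% against a background of 10.7% and 11.8%. DESeq2 called 8 lower and 3 higher (background 6.18% and 5.81%), and limma-voom 2 lower and 0 higher (background 3.04% and 1.89%). Both fl/fl libraries lay below both wt/wt libraries for 19 of the 41 genes (46.3%; background 26.3%) and above them for 7 (17.1%; background 28.1%). The log2 fold change, fl/fl over wt/wt, was negative for 30 of 41 genes (73.2%; background 48.1%), with a median of −0.23 against 0.02 over all tested genes. Of the 35 that reached the count minimum in both genotypes, 17 lay below (48.6%; background 25.8%) and 5 above (14.3%; background 29.4%). Of these 35, 27 were negative (77.1%; background 46.8%). At an unadjusted p under 0.05 (edgeR), 8 were lower and 3 higher (22.9% and 8.57%; background 10.6% and 12.5%). Leaving out fl/fl 1, edgeR called 4 lower and 0 higher (background 4.18% and 2.38%), and leaving out fl/fl 2, 4 lower and 2 higher (background 4.52% and 5.5%). In edgeR without wt/wt 1 or without wt/wt 2 no gene of the whole table passed, while 1576 and 2333 had an unadjusted p under 0.05; DESeq2 on the same 3 libraries called Slc2a1, Slc6a8 and Slc7a8 in each case.

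**Figure D2:**
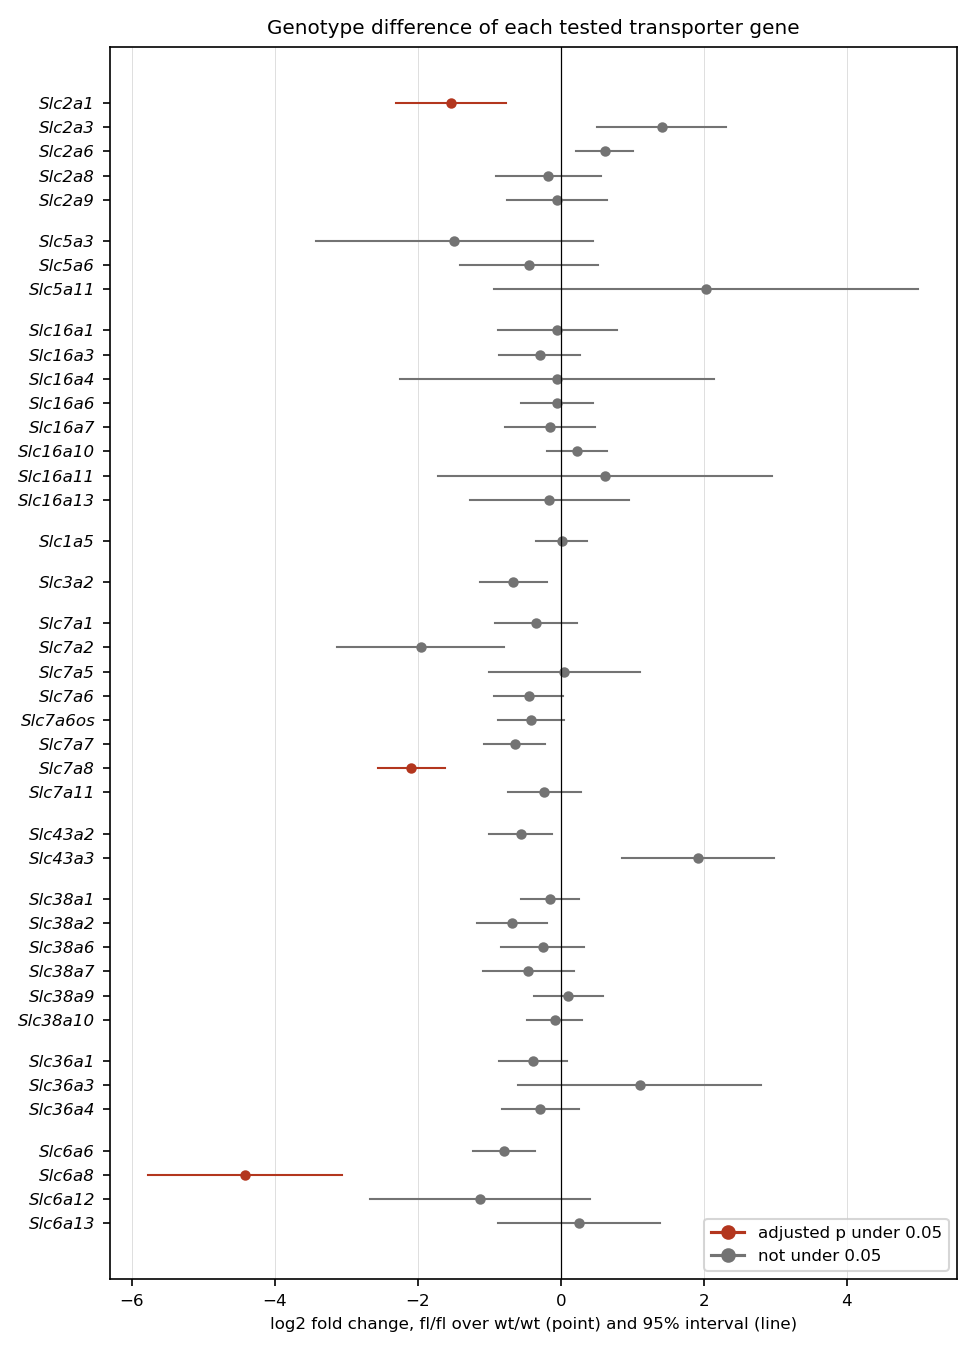
Log2 fold change of each tested gene, fl/fl over wt/wt (point), with its 95% interval (line), grouped by family; red marks an adjusted p under 0.05. Slc6a8 stands farthest left at −4.42, Slc7a8 has a narrow interval of −2.56 to −1.62, and most other intervals, which are not adjusted for the number of genes, include 0.

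In the GLUT family Slc2a1 fell and no other member passed in edgeR or limma-voom, while DESeq2 also called Slc2a3 and Slc2a6 higher. Slc2a1 (GLUT1; ENSMUSG00000028645; GRCm38 chromosome 4, 119108711 to 119137983, plus strand), the widely expressed carrier for glucose entry, held 385 and 301 CPM in the wt/wt pair and 157 and 79.8 CPM in the fl/fl pair. The groups did not overlap, and fl/fl 2 was the lowest library. Slc2a1 averaged 343 ± 59.4 CPM (SD, n = 2) across wt/wt libraries and 118 ± 54.4 CPM (SD, n = 2) across fl/fl libraries, 2.90-fold lower (log2 fold change −1.54 ± 0.32, SE; adjusted p = 0.0431, edgeR). Leaving out fl/fl 1 gave −2.14 and leaving out fl/fl 2 gave −1.12, and it passed in both fits; without wt/wt 1 and wt/wt 2 the adjusted p was 0.276 and 0.133.

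Slc2a3 (GLUT3), a high-affinity glucose carrier of neurons and leukocytes, held 53.0 and 101 CPM in the wt/wt pair and 264 and 145 CPM in the fl/fl pair. Both fl/fl libraries were above both wt/wt libraries, with the highest level in fl/fl 1. The neutrophil, granulocyte precursor and proliferation marker sums were also highest in fl/fl 1, and the part of cell composition in this difference was not tested. The difference did not pass (log2 fold change 1.41 ± 0.38, SE; adjusted p = 0.0827, edgeR), whereas DESeq2 called it (adjusted p = 0.00319). Slc2a3 was at 1.79 and passed edgeR without fl/fl 2 (adjusted p = 0.00728), and at 0.87 without fl/fl 1.

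Slc2a6 (GLUT6) held 101 and 122 CPM in the wt/wt pair and 163 and 179 CPM in the fl/fl pair. The groups were separate and close within each pair (log2 fold change 0.62 ± 0.17, SE; adjusted p = 0.0861, edgeR, and 0.0315 by DESeq2). Slc2a8 and the urate carrier Slc2a9 were low, between 7.64 and 18.2 CPM, and their libraries overlapped. Slc2a2, the carrier of hepatocytes, had 0, 0, 0 and 2 counts, and the insulin-responsive Slc2a4 had 6, 4, 0 and 0.

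On the per-length scale, Slc2a1 made up 71.7% and 59.2% of the sum of the 5 tested Slc2a genes for wt/wt, against 32.4% and 21.9% for fl/fl. The share of Slc2a6 was 20.6% and 26.2% in wt/wt against 36.9% and 53.8% in fl/fl, and that of Slc2a3 was 4.78% and 9.57% against 26.5% and 19.2%. The sum itself was 153 and 145 CPM per kb for wt/wt, against 138 and 104 for fl/fl. The Slc2a1 to Slc2a3 ratio was 15.0 in wt/wt 1 and 6.18 in wt/wt 2, but 1.23 and 1.14 in the fl/fl libraries. Which gene was higher in fl/fl depended on the length used. By CPM, Slc2a3 was above Slc2a1 in both fl/fl libraries, at 264 and 145 against 157 and 79.8 CPM. In both wt/wt libraries it was below, at 53.0 and 101 against 385 and 301 CPM. Each of these shares was separate between the genotypes, but an exact permutation test of 2 libraries against 2 cannot give a two-sided p below 0.333.

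**Figure D3:**
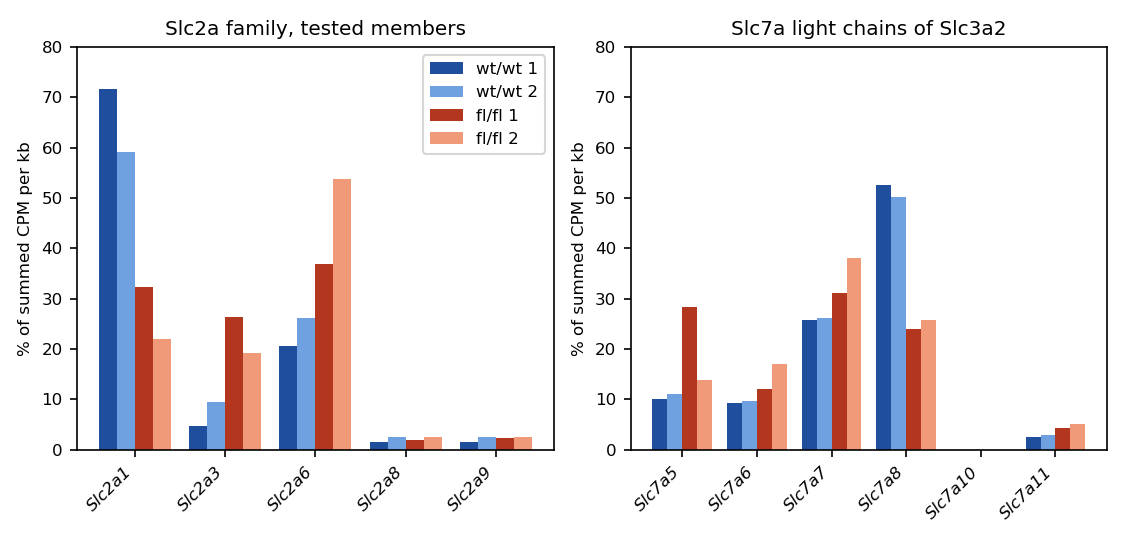
Share of each gene in the summed CPM per kb of its group, in percent, one bar per library, for the tested Slc2a genes (left) and for the Slc7a light chains that pair with Slc3a2 (right). Slc2a1 and Slc7a8 hold the largest share in both wt/wt libraries, at 59.2% or more and 50.3% or more, and lower shares in both fl/fl libraries.

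Sodium-coupled sugar and vitamin carriers of the Slc5a family were scarce. Slc5a6, the carrier for biotin and pantothenate, was the highest, at 3.73 and 3.65 CPM in the wt/wt pair and 3.09 and 2.34 CPM in the fl/fl pair. The inositol carrier Slc5a3 held 46, 46, 19 and 4 counts and its relative Slc5a11 held 0, 16, 22 and 22 counts. Their libraries were separate in opposite directions, at adjusted p = 0.343 and 0.397 (edgeR), and the 95% intervals of their log2 fold changes were −3.42 to 0.45 and −0.93 to 5.01. Of the exons of Slc5a3, 1.46% are shared with another gene on the same strand. The intestinal and renal glucose cotransporters Slc5a1 and Slc5a2 had 0 counts in every library and 4 to 8 counts per library, respectively.

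None of the 8 tested monocarboxylate transporters passed, with 0 at an unadjusted p under 0.05 as well, and DESeq2 and limma-voom on all 4 libraries also called 0. Slc16a3 (MCT4), the carrier that exports lactate from glycolytic cells, held 350 and 364 CPM in the wt/wt pair and 359 and 224 CPM in the fl/fl pair. Fl/fl 1 was level with wt/wt, and only fl/fl 2 was lower (log2 fold change −0.29, 95% interval −0.86 to 0.27; adjusted p = 0.536, edgeR). Without fl/fl 2 it was at 0.02. Without fl/fl 1 Slc16a3 was at −0.71 in edgeR (adjusted p = 0.0753), and DESeq2 then called it lower (−0.70, adjusted p = 0.0211). Slc16a1 (MCT1), which can carry lactate both ways, held 8.80 and 8.73 CPM in the wt/wt pair and 10.9 and 6.05 CPM in the fl/fl pair. Slc16a7 (MCT2), with a high affinity for pyruvate, held 14.6 and 14.6 CPM against 10.7 and 15.6 CPM. Per kilobase, Slc16a3 made up 94.0% to 95.5% of the sum of these 3 lactate carriers in every library. The aromatic amino acid carrier Slc16a10 held 55.2 and 69.0 CPM in the wt/wt pair and 70.9 and 74.2 CPM in the fl/fl pair, and Slc16a6, with 22.5% of its exons under a gene on the other strand, held 55.2 and 56.4 CPM against 63.5 and 44.2 CPM; neither passed. Slc16a4, Slc16a11 and Slc16a13 were at 8.56 CPM or less; Slc16a13, 371 bases from Slc16a11 on chromosome 11, held 6.38 and 6.89 CPM against 3.32 and 8.56 CPM, so that fl/fl 1 was the lowest library and fl/fl 2 the highest.

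Among amino acid exchangers, the Slc7a family lay mostly lower in fl/fl: both fl/fl libraries were below both wt/wt libraries for 7 of its 8 tested genes, Slc7a6os among them (87.5%; background 26.3%), with a median log2 fold change of −0.43 against 0.02 over all tested genes, and 1 of the 8 passed (12.5%; background 3.16%). That gene was Slc7a8 (LAT2; ENSMUSG00000022180; chromosome 14, 54722209 to 54781946, minus strand), an exchanger of large and small neutral amino acids. Slc7a8 held 132 and 112 CPM in the wt/wt pair and 32.1 and 25.0 CPM in the fl/fl pair. The distance between the groups far exceeded the spread within them, 122 ± 14.3 CPM (SD, n = 2) against 28.6 ± 5.05 CPM (SD, n = 2). Slc7a8 was 4.26-fold lower (log2 fold change −2.09 ± 0.20, SE; adjusted p = 0.00879, edgeR), and it passed in 14 of 16 alternative settings, the exceptions being edgeR without wt/wt 1 (adjusted p = 0.111) and without wt/wt 2 (0.0520).

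The heavy chain gene Slc3a2 held 392 and 285 CPM in the wt/wt pair and 222 and 206 CPM in the fl/fl pair. It was lower in both fl/fl libraries without passing (log2 fold change −0.66 ± 0.20, SE; adjusted p = 0.106, edgeR; 0.0301 by DESeq2). The other light chains were at −0.65 for Slc7a7 (y+LAT1, which exports cationic amino acids; adjusted p = 0.0886, edgeR; 0.0486 by DESeq2), −0.45 for Slc7a6, −0.23 for the cystine and glutamate exchanger Slc7a11 and 0.05 for Slc7a5 (LAT1, the leucine carrier of dividing and activated cells). Slc7a5 held 18.6 and 18.2 CPM in the wt/wt pair but 28.2 and 9.93 CPM in fl/fl, so the fl/fl libraries lay on opposite sides of wt/wt; leaving out fl/fl 1 gave a log2 fold change of −0.93, and leaving out fl/fl 2 gave 0.62. The summed level of 10 proliferation markers was 923 CPM in fl/fl 1 and 306 CPM in fl/fl 2, against 90.9 and 56.4 CPM in wt/wt. Fl/fl 2 thus had a higher marker sum than wt/wt but a lower Slc7a5 level, and a link between them was not tested.

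Of the summed per-length level of 6 light chains, Slc7a8 made up 52.5% and 50.3% for wt/wt, against 24.0% and 25.9% for fl/fl. Slc7a7 made up 25.8% and 26.1% against 31.1% and 38.1%, and was the most abundant light chain in both fl/fl libraries. The sum was 50.2 and 44.4 CPM per kb for wt/wt, against 26.7 and 19.3 for fl/fl. Slc7a10 had 0 counts in every library. Slc7a6 and Slc7a6os, which lie 2010 bases apart on chromosome 8, were at log2 fold changes of −0.45 and −0.42.

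The cationic amino acid carriers that work without the heavy chain were Slc7a1 (CAT1) and Slc7a2 (CAT2), which brings arginine to nitric oxide synthase and arginase in macrophages. Slc7a2 held 6.74 and 4.49 CPM in the wt/wt pair and 0.990 and 1.88 CPM in the fl/fl pair, from 150, 122, 17 and 33 counts. Both fl/fl libraries were lower, without a call in edgeR (log2 fold change −1.96 ± 0.49, SE; adjusted p = 0.0696) and with one in DESeq2 (adjusted p = 0.00974); it passed edgeR without fl/fl 2 (adjusted p = 0.0203). Slc7a1 held 21.3 and 19.9 CPM against 18.9 and 13.5 CPM. Arg1, an arginine-degrading enzyme of the list of amino acid enzymes, held 573 and 612 CPM in the wt/wt pair and 65.6 and 5.02 CPM in the fl/fl pair. Arg1 did not pass in edgeR, at a log2 fold change of −4.07 ± 0.99 (SE, adjusted p = 0.0654). The other arginase, Arg2, went the other way, higher in both fl/fl libraries without passing (1.51, adjusted p = 0.131, edgeR). The nitric oxide synthase Nos2 held 4.99 and 3.87 CPM in the wt/wt pair. Its fl/fl libraries lay on opposite sides of these, at 36.5 and 0.970 CPM. Arg1, Arg2 and Nos2 were named after their values were seen.

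The 2 tested genes of the Slc43a family lay on opposite sides. Slc43a2 (LAT4), a facilitator for leucine and other neutral amino acids, held 187 and 237 CPM in the wt/wt pair and 132 and 155 CPM in the fl/fl pair (log2 fold change −0.56 ± 0.19, SE; adjusted p = 0.137, edgeR); a gene on the other strand covers 9.18% of its exons, and the strand setting of the counting is not given in the sources used here. Slc43a3, a purine nucleobase carrier, held 5.48 and 3.24 CPM in the wt/wt pair and 22.4 and 10.6 CPM in the fl/fl pair. Slc43a3 was higher in both fl/fl libraries, most in fl/fl 1, without passing (log2 fold change 1.92 ± 0.45, SE; adjusted p = 0.0575, edgeR; 0.00162 by DESeq2). It was at 2.37 and passed without fl/fl 2 (adjusted p = 0.00236), and at 1.24 without fl/fl 1. Within the fl/fl pair the summed neutrophil markers had the same order, at 40650 CPM in fl/fl 1 and 18120 CPM in fl/fl 2. Within the wt/wt pair the order was opposite, with the marker sum at 3322 CPM in wt/wt 1 and 4151 CPM in wt/wt 2. The part of cell composition in the Slc43a3 difference was not tested.

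None of the sodium-coupled glutamine and alanine carriers passed in edgeR, with Slc38a2 the only one at an unadjusted p under 0.05 and the only one that DESeq2 called; limma-voom called 0. Slc1a5 (ASCT2), a glutamine exchanger, held 92.6 and 92.0 CPM in the wt/wt pair and 90.8 and 95.6 CPM in the fl/fl pair (log2 fold change 0.01, 95% interval −0.34 to 0.37; adjusted p = 0.973, edgeR); its sign changed under other scalings. It was the only tested Slc1a gene, and the glutamate carriers Slc1a1 and Slc1a3 had 0 counts in every library. Slc38a2 (SNAT2), which cells raise when amino acids run short, held 320 and 225 CPM in the wt/wt pair and 167 and 173 CPM in the fl/fl pair. It was lower in both fl/fl libraries without passing (log2 fold change −0.68 ± 0.20, SE; adjusted p = 0.106, edgeR; 0.0296 by DESeq2). Its neighbour Slc38a1 (SNAT1), 44478 bases away on chromosome 15, held 77.2 and 73.8 CPM against 61.3 and 74.9 CPM, and its libraries overlapped.

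Carriers of the lysosome membrane did not pass. Slc38a9, which reports lysosomal arginine to mTORC1, held 56.0 and 62.5 CPM in the wt/wt pair and 53.7 and 74.0 CPM in the fl/fl pair. The proton-coupled carrier Slc36a1 (PAT1) held 84.5 and 84.9 CPM in wt/wt against 76.0 and 53.9 CPM in fl/fl. The lysosomal glutamine exporter Slc38a7 held 24.3 and 23.9 CPM against 13.5 and 21.8 CPM. The log2 fold changes of these 3 genes ran from −0.45 to 0.11. Slc36a4, Slc38a6 and Slc38a10 also did not pass, at −0.28, −0.25 and −0.09, and Slc36a3 held 18, 13, 30 and 18 counts.

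The hepatocyte carriers Slc38a3 and Slc38a4 were not tested. Slc38a3 had 5, 0, 1 and 29 counts and Slc38a4 had 3, 0, 1 and 17 counts, in the order wt/wt 1, wt/wt 2, fl/fl 1 and fl/fl 2. Both were highest in fl/fl 2, where Alb, the albumin gene of hepatocytes, was at 60.7 CPM against 9.55 CPM in fl/fl 1 and 26.7 to 40.0 CPM in wt/wt. The summed level of all 10 hepatocyte genes was 280 and 391 CPM in the wt/wt pair and 220 and 432 CPM in the fl/fl pair, with none of them at 0 in all libraries. Trf, which made up 200 to 350 CPM of it, carried this sum in every library, and without Trf it was 64.7 and 41.0 CPM against 20.2 and 108 CPM. The part of hepatocyte RNA in these counts was not tested.

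In the Slc6a family, Slc6a8 (ENSMUSG00000019558; chromosome X, 73673150 to 73682502, plus strand), the creatine transporter, held 10.8 and 5.45 CPM in the wt/wt pair and 0.466 and 0.285 CPM in the fl/fl pair, from 241, 148, 8 and 5 counts. It was nearly absent from both fl/fl libraries, of which only fl/fl 2 held Xist. Neither wt/wt library held Xist, and the part of sex in this difference was not tested. Slc6a8 averaged 8.14 ± 3.80 CPM (SD, n = 2) across wt/wt libraries and 0.376 ± 0.128 CPM (SD, n = 2) across fl/fl libraries, 21.3-fold lower (log2 fold change −4.42 ± 0.57, SE; adjusted p = 0.0149, edgeR). Since Slc6a8 reached the count minimum in wt/wt only, it was tested only because it was high there, and its fold rests on 8 and 5 counts in fl/fl. Limma-voom did not call it (−4.25, adjusted p = 0.0591), nor did edgeR without wt/wt 1 (−3.89, adjusted p = 0.167) or without wt/wt 2 (−4.82, adjusted p = 0.0570). Slc6a6 (TauT), the taurine carrier and the most abundant Slc6a gene, held 319 and 257 CPM in the wt/wt pair and 179 and 152 CPM in the fl/fl pair. Its groups did not overlap, and it just missed the threshold (log2 fold change −0.79 ± 0.18, SE; adjusted p = 0.0562, edgeR), with a call in 8 of 16 alternative settings, DESeq2 among them (adjusted p = 0.00355). The betaine and GABA carriers Slc6a12 and Slc6a13 lie 5342 bases apart on chromosome 6; Slc6a12 held 4.63 and 1.47 CPM against 1.34 and 1.43 CPM, and Slc6a13 held 1.89 and 1.92 CPM against 2.56 and 2.00 CPM. Serotonin, dopamine and noradrenaline carriers of this family were at 25 counts in all (Slc6a4) or at 0 (Slc6a3, Slc6a2).

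Genes that handle the carried substrates were taken from 5 lists. Over all tested genes, edgeR called 3.16% lower and 2.69% higher. Of 19 tested genes for glucose entry and its regulation, 3 fell (15.8%) and 0 rose: Hk2, the inducible hexokinase that traps glucose after entry (log2 fold change −1.63 ± 0.22, SE; adjusted p = 0.0164, edgeR), Myc, a growth regulator (−1.61, adjusted p = 0.0193), and Hif1a, the oxygen-regulated subunit of HIF-1 (−1.16, adjusted p = 0.0215). Hk2 held 374 and 255 CPM in the wt/wt pair and 108 and 95.1 CPM in the fl/fl pair, and Hif1a held 345 and 296 against 158 and 129 CPM. The list's median was 0.01, and the constitutive hexokinase Hk1 and the myeloid Hk3 overlapped between groups (103 and 108 against 118 and 93.6 CPM, and 370 and 211 against 384 and 234 CPM; both named after their values were seen). Both fl/fl libraries lay above both wt/wt libraries for 6 genes of this list and below them for 8 (31.6% and 42.1%, background 28.1% and 26.3%). G6pdx and Taldo1 were higher without passing, at 1.55 (adjusted p = 0.0541, edgeR) and 0.69 (adjusted p = 0.0773). Mlxipl was lower without passing, at −2.24 (adjusted p = 0.0525, edgeR). G6pdx, Taldo1 and Mlxipl were named after their values were seen. Of 15 tested lactate and pyruvate genes, 1 fell (6.67%) and 0 rose. The gene that fell was Pdk1, a pyruvate dehydrogenase kinase. Pdk1 held 74.5 and 71.0 CPM for wt/wt, against 20.4 and 16.9 CPM for fl/fl (−1.96 ± 0.18 SE, edgeR adjusted p = 0.00879). Ldha, which makes lactate, and Bsg, the chaperone of MCT1 and MCT4, did not pass, at −0.92 (adjusted p = 0.0948, edgeR) and −0.54 (adjusted p = 0.114). Mpc2 and Emb did not pass either, at 0.67 (adjusted p = 0.0600, edgeR) and 0.45 (adjusted p = 0.189). Ldha, Bsg, Mpc2 and Emb were named after their values were seen. In this list both fl/fl libraries lay above both wt/wt libraries for 5 genes and below them for 5 (33.3% each, background 28.1% and 26.3%).

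Of 26 tested amino acid enzymes, 2 fell (7.69%, background 3.16%) and 0 rose (background 2.69%): Got1, the cytosolic aspartate aminotransferase (−1.71, adjusted p = 0.0138, edgeR), and Ass1, which remakes arginine from citrulline (−1.22, adjusted p = 0.0448). Ass1 held 143 and 89.6 CPM in the wt/wt pair and 43.4 and 56.3 CPM in the fl/fl pair. Of 27 tested genes of amino acid sensing and mTORC1, 1 fell (3.70%) and 2 rose (7.41%). The arginine sensor Castor1 held 31.7 and 25.2 CPM in the wt/wt pair and 3.67 and 8.85 CPM in the fl/fl pair (−2.18 ± 0.41, SE; adjusted p = 0.0322, edgeR). The genes that rose were Lamtor4 (0.80, adjusted p = 0.0312) and Lamtor2 (0.78, adjusted p = 0.0380), which encode parts of the complex that anchors mTORC1 at the lysosome. Of 18 tested genes of the amino acid response through ATF4, none passed (edgeR; 2 higher and 1 lower at an unadjusted p under 0.05), and Atf4 itself held 782 and 740 CPM in the wt/wt pair and 725 and 736 CPM in the fl/fl pair. At an unadjusted p under 0.05, edgeR had 4 higher and 4 lower in the glucose list, 2 and 3 in the lactate list, 4 and 3 among the enzymes and 2 and 4 in the sensing list (background 11.8% higher and 10.7% lower). DESeq2 called 2 higher and 4 lower in the glucose list, 1 and 3 in the lactate list, 3 and 3 among the enzymes, 2 and 2 in the sensing list and 1 and 1 in the ATF4 list (background 5.81% and 6.18%). Limma-voom called 0 higher and 3 lower in the glucose list, 0 and 1 in the lactate list, 0 and 3 among the enzymes, 2 and 1 in the sensing list and 0 and 0 in the ATF4 list (background 1.89% and 3.04%). The medians of the 5 lists ran from −0.15 to 0.11, against 0.02 over all tested genes.

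**Figure D4:**
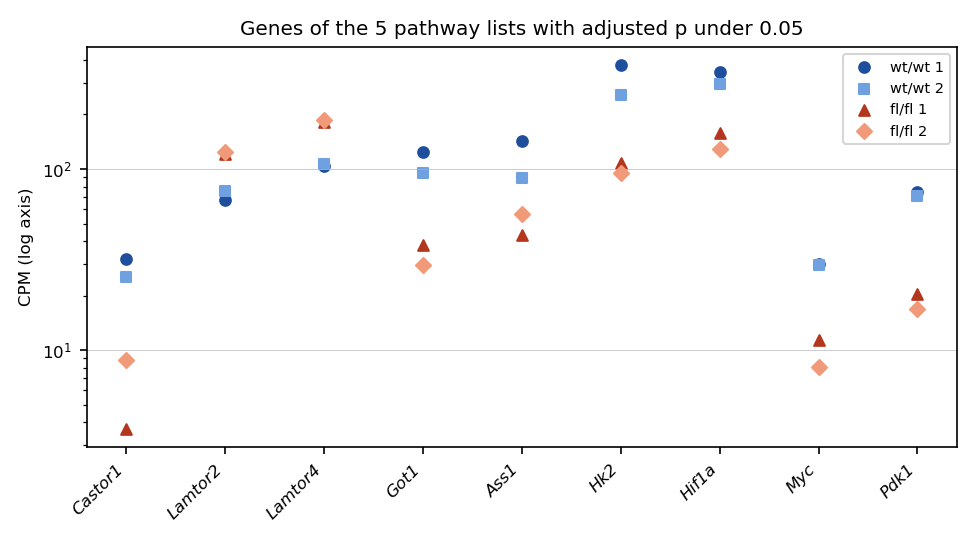
Level in CPM, on a log axis, of the 9 genes of the pathway lists with an adjusted p under 0.05, one symbol per library. Both fl/fl symbols lie below both wt/wt symbols for Castor1, Got1, Ass1, Hk2, Hif1a, Myc and Pdk1 and above them for Lamtor2 and Lamtor4.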

How the data were processed

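The file the authors deposited holds unnormalized read counts by Ensembl identifier, with a column for each of 4 poly(A) libraries. STAR 2.5.0, Trimmomatic 0.33 and FastQC 0.11.5 and the build GRCm38 are named in the submitters' processing notes. How reads were counted, and with which strand setting, is not given in the sources used here. Gene symbols, biotypes, positions and exon-union lengths came from GENCODE M21, which held 55141 of 55487 identifiers.

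Counts were fitted with edgeR 4.0.16 (R 4.3.3): filterByExpr with a minimum count of 10 (13496 genes left), TMM scaling, and the two-sided quasi-likelihood F test without covariates, adjusted by Benjamini-Hochberg over all tested genes at 0.05. Fold changes used a prior count of 0.125, and each SE was taken as |log2 fold change| divided by √F. CPM per kb divides by exon-union length. That length joins the exons of all annotated transcripts of a gene, which need not be those made here, so ranks, shares and ratios between genes depend on it. On simulated data the fit recovered 58% of 50 genes changed by a log2 of 1, with 12 false calls among 13496 genes. It recovered 100% of those changed by 2, 3 or 4. The changed genes were drawn from those at or above the median level, so recovery of scarcer genes was not tested. Each simulated gene took its spread from its level alone, the same for both genotypes. In the real libraries the SD of log2 differences was 0.631 within wt/wt and 0.814 within fl/fl. Recovery of genes with a wider spread was thus not tested, and Arg1, at a log2 fold change of −4.07, did not pass in edgeR.

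The members, lists and tests were chosen with earlier results of these data known. Genes named were all members past the threshold, 11 preset members, the 2 most abundant and the 2 with the smallest p in each family, and up to 4 called genes per pathway list; others describe a family's remaining members or are said to be named after their values were seen. Alternatives included DESeq2 1.42.0 and limma-voom (limma 3.58.1), other scalings and filters, and leaving out each library.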

Additional observations from a re-analysis of the deposited data

How the results depend on the processing

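Of 28 named transporters, 22 kept 1 sign in every setting run. The exceptions were Slc1a5, Slc7a5, Slc16a1, Slc16a3, Slc16a6 and Slc38a10, none of which passed in the edgeR test of all 4 libraries. The number of transporters lower in fl/fl was 9 without a filter on low counts and 8 with DESeq2, against 3, and the number higher was 3 without a filter, 3 with DESeq2 and 1 with library size only, against 0. Over all genes, 2088 passed without a filter and 1618 with DESeq2, against 790. Leaving out each library gave 0 to 1477 genes, 0 to 4 transporters lower and 0 to 2 higher in edgeR, and with DESeq2, added after the data were seen, 496 to 1401 genes, 3 to 6 lower and 0 to 1 higher. A group left with 1 library takes its spread from the other genotype. The causes were not tested. The libraries of the 2 genotypes share replicate numbers only: deviations of same-numbered libraries correlated at 0.0215, and with the replicate block 1215 genes passed, with 4 transporters lower and 2 higher (Slc2a3 and Slc43a3). Of the 28, 10 that did not pass in the main test passed under at least 1 alternative, and each of the 3 that passed lost its call under at least 1. The 8 tested transporters with the fewest counts, 41 to 276 over the 4 libraries, were Slc16a4, Slc16a11, Slc5a11, Slc36a3, Slc5a3, Slc6a13, Slc6a12 and Slc5a6.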
